A study of Mus musculus with 28 samples.

Results

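The comparison described here set mouse embryonic fibroblasts (MEFs) that had been exposed to a p38 inhibitor before reprogramming against control cells, both taken 1 day after reprogramming was induced. It rested on 4 of the 28 RNA-seq libraries of the series, the 2 labelled as pretreated (pre-p38i) and the 2 control libraries of the same day, chosen by their labels. The cells of every group carried the genotype label WT and were fibroblasts from mouse embryos which, by the methods of the study, held an Oct4-GFP reporter allele. Those taken after induction had been infected with retroviruses that express Oct4, Klf4 and Sox2 (OKS) and moved to the induction medium iCD1 on day 0. In the MEFs taken before induction the 3 factor genes summed to only 18 to 20, against 4494 to 6020 in the 4 libraries compared. The pre-p38i cells received SB203580, an inhibitor of the p38 mitogen-activated protein kinases, during fibroblast culture and none after induction. The control cells are DMSO-treated by the text of the study, whereas their label names only OKS reprogramming. Libraries of MEFs before induction with and without the inhibitor, of day 3, and of cells given the inhibitor during induction (p38i) serve below as points of reference. Nothing in the labels says that replicates came from separate cultures. The p-values therefore measure a spread between replicate libraries, pooled over all 14 groups of the series, which may be technical.

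The p38 kinases are switched on by stress, cytokines and contact with a stiff support, and in fibroblasts they feed into the genes for contractile proteins, matrix and secreted factors. When Oct4, Klf4 and Sox2 are forced into fibroblasts, the fibroblast genes are shut down first, epithelial genes then rise, and the endogenous pluripotency genes come on last. Day 1 therefore falls in the phase in which the fibroblast programme is being lost. Values are deposited TPM (transcript abundances scaled to a fixed library total) rounded down to whole numbers, so that a listed 0 stands for anything under 1 and values below about 10 move in coarse steps. Sequencing depth is unknown from such values. A gene was called when limma's moderated test on log2(value + 1) gave a Benjamini-Hochberg adjusted p under 0.05 over the 13230 genes tested, and every fold change below is on that scale, which understates changes of low genes.

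Of the 13230 genes, 1539 (11.6%) were called, 714 higher (5.4%) and 825 lower (6.24%) in pre-p38i than in DMSO. Counts of called list members on day 1 below are to be read against these shares. Most of these differences were small, with a median size of 0.44 on the log2 scale and 867 of them under 0.5. A difference of at least 1 was reached by 256 genes (1.93%), of which 86 were higher (0.65%) and 170 lower (1.28%), and 20 genes differed by 2 or more. The root mean square log2 difference was 0.363 between the DMSO replicates, 0.365 between the pre-p38i replicates and 0.448 to 0.458 between libraries of the 2 groups. The 4 libraries listed 13291 to 13444 genes at 1 or more, and up to 6.81% of the total fell to the 10 most abundant genes. The libraries of the groups did not overlap for 2869 genes in the higher direction (21.7%) and for 2661 in the lower (20.1%), called or not. Mitochondrially encoded genes held 3.06% to 3.24% of the total in 3 libraries and 3.92% in pre-p38i replicate 2. In bulk RNA fewer cells of a type and less RNA per cell cannot be told apart, which holds for every fall and rise below.

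The fit pooled the spread of all 14 groups. Fitted on the 4 libraries alone, 359 genes were called, of which 209 were also among the 1539, and fitted on the 6 libraries of day 1, 660 genes were called. Of the 161 called genes named by the rule, 87 stayed called when each of the 4 libraries was left out in turn, and unless said otherwise the called genes described singly below are among those.

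Many contractile genes fell, and 1 of them, Acta1, fell by more than any other gene ranked. Such genes encode the actin, myosin light chain, calponin and tropomyosin of stress fibres, and many are driven by serum response factor (SRF) and its actin-sensing partners. Of 28 contractile genes tested, 14 fell and 1 rose (Tpm4), with a median difference of -0.24 on the log2 scale against 0.00 over all genes tested. The count of falling members was 13 to 14 without any 1 of the 4 libraries and 8 on the 4 libraries alone. Acta1 (chromosome 8, 123891769 to 123894751), the skeletal muscle isoform of alpha-actin that cultured fibroblasts also express, was 33 in both DMSO libraries and 3 in both pre-p38i libraries. The difference was -3.09 ± 0.32 (SE) on the log2 scale (adjusted p = 2.92e-06, limma). Myl9, the regulatory light chain of non-muscle and smooth muscle myosin, was 148 and 144 in DMSO and 41 and 42 in pre-p38i (-1.79 ± 0.25, adjusted p = 9.01e-05). Cnn1, the smooth muscle calponin, was 37 and 28 against 8 and 7 (-1.97 ± 0.29, adjusted p = 0.000155). In all 3 genes every pre-p38i library lay below both DMSO libraries, as for 20.1% of all genes tested. For Acta1 and Cnn1 the ranking rule required this.

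The abundant members moved less. Acta2, the alpha smooth muscle actin that marks myofibroblasts, was 841 and 901 in DMSO and 405 and 421 in pre-p38i (-1.07 ± 0.11, adjusted p = 2.04e-06). Tagln, which encodes the actin-bundling protein transgelin, was 675 and 755 against 334 and 325 (-1.11 ± 0.13, adjusted p = 1.18e-05). Synpo2, an actin-binding protein gene, was called lower but was listed at 1 in both DMSO libraries and at 0 in both pre-p38i libraries. Summed over the list, the values were 8772 and 8902 in DMSO and 7184 and 7208 in pre-p38i, while Srf itself was listed at 20 in both DMSO libraries and 23 in both pre-p38i libraries and was not called. Of 18 skeletal muscle markers 14 were listed at 0 in all 4 libraries and 3 were tested, all with lower values in pre-p38i (-0.79 to -0.18), and the list summed to 52 and 51 against 43 and 39. Chrna1 alone was called, at 43 and 43 against 33 and 35 (-0.33), a call lost without any 1 of the libraries (adjusted p from 0.104 to 0.213).

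Upstream sequences of 5 of these genes are shown because the genes fell together and because 2 known kinds of site for their regulators lie in 4 of them. Each is the 250 bases before the RefSeq start of the gene, 5′ to 3′ on the gene's own strand, from RefSeq on GRCm38.p6. Capitals mark the CArG box, the site SRF binds, only in its strict form with A or T alone between CC and GG. They also mark GGAATG or its reverse complement CATTCC, the core of the site that TEAD factors, the partners of YAP, bind. Near matches with another base inside, such as ccctatatgg and ccttgtttgg in the Acta2 stretch, were left in lower case. The Acta1 stretch (chr8:123894776-123895025, minus strand) has a CArG box starting 73 bases and a TEAD core starting 46 bases before the gene start.
Acta1: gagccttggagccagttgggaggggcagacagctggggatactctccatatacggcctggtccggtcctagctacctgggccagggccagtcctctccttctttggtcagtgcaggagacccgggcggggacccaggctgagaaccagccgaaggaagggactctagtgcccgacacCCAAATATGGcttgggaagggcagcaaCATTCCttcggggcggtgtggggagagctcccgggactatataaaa
In the Acta2 stretch (chr19:34255374-34255623, minus strand) a TEAD core starts 146 bases before the start.
Acta2: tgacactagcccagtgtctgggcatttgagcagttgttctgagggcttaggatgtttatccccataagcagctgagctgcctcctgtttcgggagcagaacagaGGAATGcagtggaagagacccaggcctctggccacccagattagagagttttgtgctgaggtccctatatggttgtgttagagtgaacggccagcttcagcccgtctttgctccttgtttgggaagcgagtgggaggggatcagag
The Cnn1 stretch (chr9:22099003-22099252, plus strand) holds neither motif.
Cnn1: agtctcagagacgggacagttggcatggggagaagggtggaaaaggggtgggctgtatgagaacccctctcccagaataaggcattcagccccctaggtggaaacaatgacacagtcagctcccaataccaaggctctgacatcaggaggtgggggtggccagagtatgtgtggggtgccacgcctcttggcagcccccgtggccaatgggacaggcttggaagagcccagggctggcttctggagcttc
In the Myl9 stretch (chr2:156775214-156775463, plus strand) a CArG box starts 161 bases before the start.
Myl9: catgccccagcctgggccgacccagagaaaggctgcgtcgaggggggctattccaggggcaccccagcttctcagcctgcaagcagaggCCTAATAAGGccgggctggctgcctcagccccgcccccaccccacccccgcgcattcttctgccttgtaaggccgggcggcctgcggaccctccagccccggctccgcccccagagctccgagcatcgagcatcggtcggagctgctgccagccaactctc
The stretch of Ankrd1 (chr19:36119845-36120094, minus strand), a stretch-response gene described with the YAP targets below, has TEAD cores that start 210 and 123 bases before the start.
Ankrd1: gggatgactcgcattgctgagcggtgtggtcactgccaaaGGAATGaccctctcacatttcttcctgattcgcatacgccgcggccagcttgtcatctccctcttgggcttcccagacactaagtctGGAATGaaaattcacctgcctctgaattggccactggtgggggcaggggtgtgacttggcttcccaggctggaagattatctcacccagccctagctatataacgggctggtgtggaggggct

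Both motifs were searched on both strands, the CArG box only in its strict form. The windows were the table's 300 bases, 250 before and 50 after each gene start. The table had an entry for 9831 of the genes tested, for 525 of the genes called higher and for 608 of those called lower. Of the 12 falling contractile genes with an entry, 6 held a TEAD core and 2 held a CArG box (16.7%), where 14.4% and 1.64% of all tested genes with an entry did. Contractile genes that did not fall were not counted apart, so whether these shares go with falling was not tested. Over all genes called lower the TEAD core was in 18.1% and the CArG box in 1.97% of the windows, and over those called higher in 12.4% and 3.05%. The AP-1 motif TGANTCA was in 10.9% of the windows of genes called lower, 5.52% of those called higher and 6.33% of all tested. The E2F letters TTTCGCGC were in 0.329%, 1.33% and 0.722% in the same order, and those of TTTGGCGC in 1.32%, 0.952% and 1.14%. The E-box CACGTG was in 13.0%, 12.2% and 11.7%, and the cyclic AMP element TGACGTCA in 2.8%, 2.1% and 3.65%. These shares describe letters in short windows and are not sites shown to be bound.

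**Figure D1:**
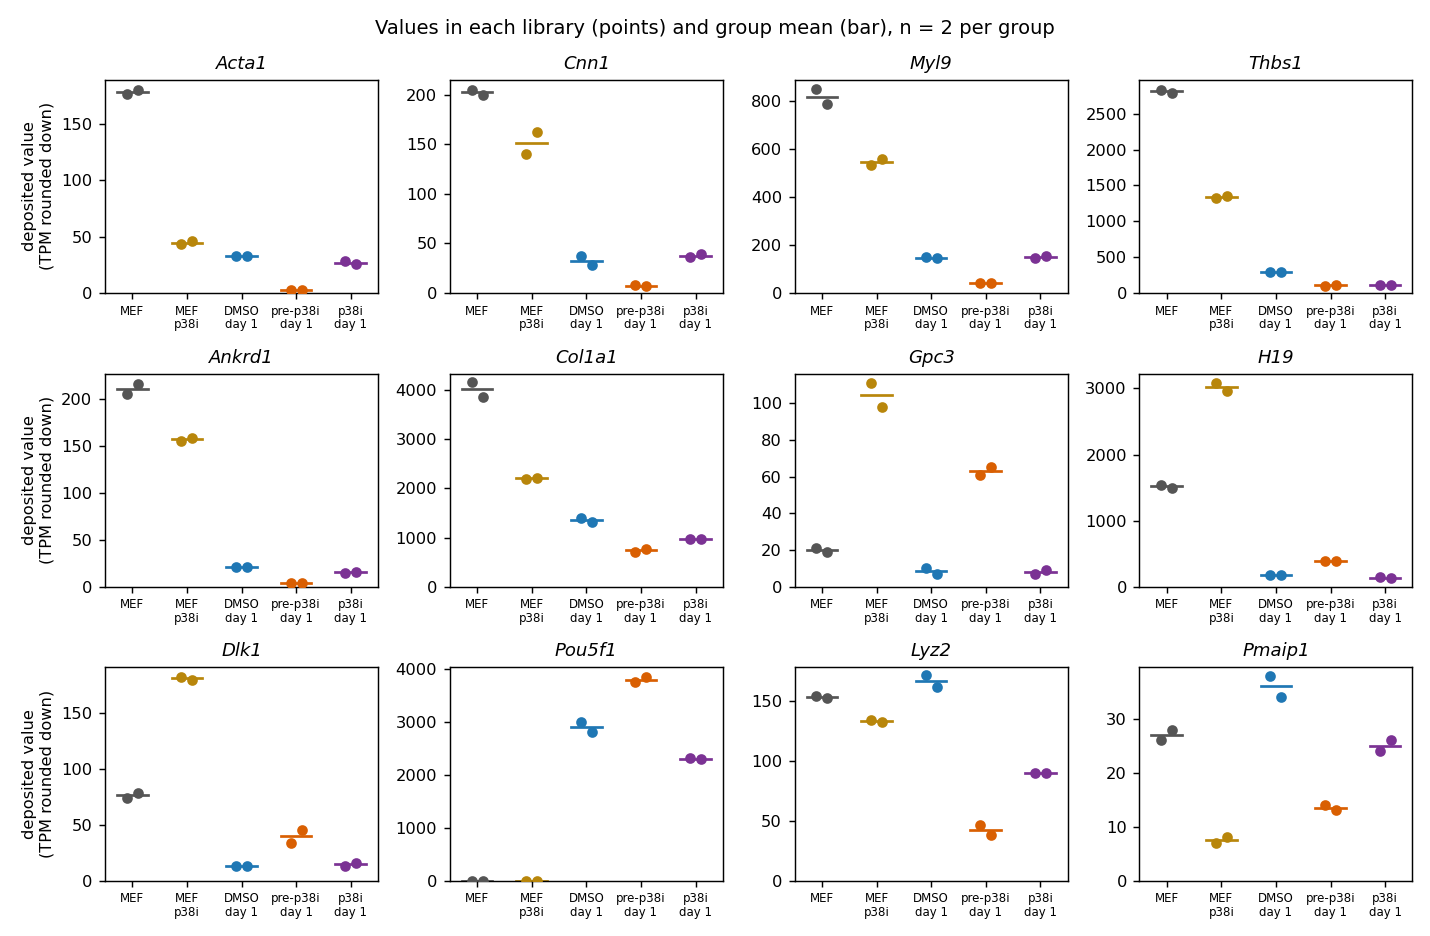
Deposited values (TPM rounded down, linear axis from 0) of 12 genes in MEFs, MEFs given the inhibitor, and the DMSO, pre-p38i and p38i cells of day 1. Points are libraries, 2 per group, and bars their mean, and Acta1 is at 33 in both DMSO and 3 in both pre-p38i libraries while Gpc3 is at 10 and 7 against 61 and 65.

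In the control cells the same genes stood far below their level in MEFs, as the plot of 12 genes by group shows. Acta1 was 176 and 180 in untreated MEFs and 43 and 46 in inhibitor-treated MEFs (-1.98, adjusted p = 0.000195, limma). Cnn1 was 205 and 200 in MEFs and 140 and 162 with the inhibitor (-0.42, adjusted p = 0.364), and Acta2 was 6180 and 5867 against 5355 and 5572 (-0.14, adjusted p = 0.43). For Acta2, Tagln, Myl9 and Cnn1 the day 1 difference was larger than the MEF difference by the test of the difference itself, by -0.93 (adjusted p = 0.000566), -1.32 (adjusted p = 0.000118), -1.20 (adjusted p = 0.0417) and -1.54 (adjusted p = 0.0241). For Acta1 the 2 differences were not shown to differ (-1.11, adjusted p = 0.157). In cells given the inhibitor during induction Acta1 was 28 and 26, Cnn1 36 and 39, Myl9 144 and 155 and Acta2 922 and 964, each above the pre-p38i values. Of the 28 contractile genes, 12 were lower and 3 higher in pre-p38i than in p38i on day 1, a comparison that called 3729 genes (28.2%), 2638 higher (19.9%) and 1091 lower (8.25%), or 1784 and 1428 after quantile normalization. That comparison shares the pre-p38i libraries with the one described here.

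Targets of the YAP and TEAD factors, which respond to cell spreading and tension, fell in part. Of 25 CCN family and YAP target genes tested, 11 fell and 1 rose, with a median of -0.22. Only 4 to 7 fell when 1 library was left out, 4 of them without DMSO replicate 1, 7 without DMSO replicate 2, 5 without pre-p38i replicate 1 and 6 without pre-p38i replicate 2, and 2 fell on the 4 libraries alone. Ankrd1 (chromosome 19, 36111965 to 36119844), a nuclear and sarcomeric ankyrin repeat protein, was 21 in both DMSO libraries and 4 in both pre-p38i libraries (-2.14 ± 0.19, adjusted p = 4.3e-07, limma), and stayed called under every alternative tried. It had been 206 and 217 in MEFs and 156 and 159 in inhibitor-treated MEFs (-0.42, adjusted p = 0.143). F3, the tissue factor that starts blood coagulation, was 32 and 34 against 19 and 16 (-0.88 ± 0.16, adjusted p = 0.00109). The member that rose was Nov (Ccn3), an inhibitory member of the CCN family, at 4 and 5 against 11 and 10 (1.07 ± 0.21, adjusted p = 0.00266). Ctgf (Ccn2), the best known target of YAP, was 198 and 189 against 193 and 197 and was not called.

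Many genes of the fibroblast matrix fell, though most members of each list were not called lower. Of 23 collagen genes tested 10 fell and 2 rose (median -0.30), and of 36 matricellular and other matrix genes 17 fell and 4 rose (median -0.29). Without 1 library the falling collagens numbered 4 to 9, with 4 of them without DMSO replicate 1 and 4 without pre-p38i replicate 1, and the falling matrix genes numbered 12 to 15. The 4 libraries alone gave 2 falling collagens and 8 falling matrix genes. Col1a1, the main chain of type I collagen, was 1392 and 1318 in DMSO and 717 and 773 in pre-p38i (-0.86 ± 0.08, adjusted p = 1.23e-06, limma). Its partner chain Col1a2 was 1731 and 1611 against 1152 and 1209 (-0.50 ± 0.06, adjusted p = 7.76e-06), and Col5a2, a chain of the collagen that seeds type I fibrils, was 292 and 265 against 159 and 160 (-0.80 ± 0.08, adjusted p = 1.23e-06). Col3a1 stood at 341 and 320 against 331 and 327 and was not called. The cartilage collagen Col2a1 went the other way, at 29 and 30 against 44 and 52 (0.68 ± 0.08, adjusted p = 2.1e-05).

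Secreted matrix proteins fell beside the collagens. Thbs1, which binds cells and activates latent TGF-beta, was 290 and 289 in DMSO and 104 and 112 in pre-p38i (-1.42 ± 0.06, adjusted p = 3.97e-11, limma). Igfbp7, a secreted binding protein of insulin-like growth factors, was 787 and 772 against 310 and 314 (-1.32 ± 0.13, adjusted p = 2.43e-06). Lox, the enzyme that cross-links collagen and elastin, was 359 and 349 against 176 and 185 (-0.97 ± 0.06, adjusted p = 4.93e-09), and Fbln2, a basement membrane glycoprotein, was 1181 and 1135 against 603 and 600 (-0.94 ± 0.05, adjusted p = 1.08e-09). Groups did not overlap for any of these 4 genes, as for 20.1% of all genes tested in the lower direction. Against the trend, Fbn2, the fibrillin of developing tissues, was 7 in both DMSO libraries and 19 and 20 in pre-p38i (1.36 ± 0.16, adjusted p = 1.13e-05). Aspn was called lower with values of 3 and 1 against a listed 0 in both pre-p38i libraries, a call lost without DMSO replicate 1 (adjusted p = 0.085).

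Matrix-degrading enzymes and their inhibitors were mixed, with 2 of 17 falling and 1 rising (median 0.00). Mmp12, the macrophage elastase, was 3 and 4 against 1 and 1 (-1.16, adjusted p = 0.000984, limma), and Timp2 was 839 and 814 against 638 and 654 (-0.35, adjusted p = 6.48e-05). Mmp19 was 4 and 6 against 8 and 8 (0.61, adjusted p = 0.0277), and its call was lost without DMSO replicate 1 (0.36, adjusted p = 0.316) and without either pre-p38i replicate (adjusted p = 0.106 and 0.111).

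The 10 fibroblast markers checked against the label were all at 7 or more in the 4 libraries, and 5 of them fell and 1 rose. Pdgfrb, a growth factor receptor of mesenchymal cells, was 15 and 15 against 10 and 9 (-0.61 ± 0.12, adjusted p = 0.00317, limma), Postn was 71 and 64 against 44 and 47 (-0.56), and Dcn, which encodes the matrix proteoglycan decorin, was higher at 177 and 182 against 239 and 227 (0.37). Of 16 mesenchymal transcription factors and adhesion genes 5 fell and 1 rose (median -0.14), and 2 fell without DMSO replicate 1 or pre-p38i replicate 1. Fn1, fibronectin, was 1745 and 1685 against 1171 and 1259 (-0.50 ± 0.05, adjusted p = 4.12e-06). Twist1, a driver of the mesenchymal state, was 189 and 179 against 191 and 199 (0.08 ± 0.06, adjusted p = 0.458), and Zeb1, a repressor of epithelial genes, was 19 and 16 against 17 and 18 (0.00 ± 0.11, adjusted p = 1). Prrx2 (17 and 13 against 6 and 8) and Snai1 (11 and 11 against 6 and 7) were called lower, but Prrx2 lost its call without DMSO replicate 1 (-0.82, adjusted p = 0.106) or pre-p38i replicate 1 (-0.82, adjusted p = 0.0998), and Snai1 without any 1 of the 4 libraries (adjusted p from 0.0948 to 0.217).

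Many secreted inflammatory and wound-type factors also fell. Of 21 tested genes for senescence-type cytokines, growth factors and prostaglandin enzymes, 12 fell and 1 rose, with a median of -0.64, and 11 to 12 fell without any 1 library, but 4 on the 4 libraries alone. Ptgs2, the inducible cyclooxygenase COX-2, was 133 and 125 against 71 and 68 (-0.88 ± 0.10, adjusted p = 4.65e-06, limma), and was as low in p38i at 70 and 69. Il1rl1, the receptor for interleukin 33, was 28 and 28 against 10 and 4 (-1.97 ± 0.33, adjusted p = 0.000621). Csf1, the growth factor of macrophages, was 57 and 51 against 31 and 31 (-0.78 ± 0.07, adjusted p = 5.17e-07), although it was higher with the inhibitor in MEFs, at 255 and 241 against 319 and 325 (0.38, adjusted p = 0.000821). Tslp was called higher at 1 and 1 against 5 and 5, but lost its call without any 1 library (adjusted p from 0.0906 to 0.0961). Of 15 chemokine genes 3 fell (1 without DMSO replicate 2 or pre-p38i replicate 2, and 2 without either of the others), among them Cxcl16 at 12 and 11 against 4 and 5 (-1.19 ± 0.21, adjusted p = 0.000856).

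Several of the largest ranked falls were in genes of the prolactin family and in Crct1 and Lce1h. Proliferins are growth factors of the prolactin family that cultured mouse fibroblasts make when they grow. Both tested proliferins fell, Prl2c3 from 60 and 69 to 12 and 6 (-2.78 ± 0.20, adjusted p = 3.59e-08, limma) and Prl2c2 from 61 and 70 to 16 and 16 (-1.96 ± 0.28, adjusted p = 0.000111). These genes share at least 95% of their sequence over 200 bases or more, so that how reads were split between them is uncertain, and the proliferin list as a whole summed to 122 and 139 in DMSO and 29 and 23 in pre-p38i. In inhibitor-treated MEFs both were at 0 or 1, against 18 and 16 for Prl2c3 and 15 and 8 for Prl2c2 in untreated MEFs. Prl3d3 was 12 and 11 against 2 and 0 (-2.85 ± 0.48, adjusted p = 0.000571). Crct1 was 57 and 47 against 10 and 11 (-2.20 ± 0.33, adjusted p = 0.000217) and Lce1h was 16 and 13 against 2 and 3 (-2.15 ± 0.26, adjusted p = 1.43e-05), both genes of the cornified envelope of skin. In p38i Crct1 stood at 62 and 55 and Lce1h at 21 and 20.

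Other ranked rises came from low levels. Lrrn3, a leucine-rich repeat membrane protein of neurons, was 6 and 6 against 17 and 17 (1.36 ± 0.19, adjusted p = 0.000109, limma), and Vat1l was 11 and 17 against 34 and 37 (1.31 ± 0.17). Myh1, a fast skeletal myosin heavy chain, was 3 and 4 against 10 and 10 (1.298 ± 0.16, adjusted p = 2.12e-05) and was listed at 0 in MEFs. Serpina3n, an inhibitor of serine proteases, was 4 and 4 against 9 and 13 (1.24 ± 0.19, adjusted p = 0.000258), Luzp2 was 5 and 6 against 15 and 12 (1.15 ± 0.15), and Hddc3 was 8 and 5 against 21 and 18 (1.48 ± 0.29, adjusted p = 0.00213). Some ranked calls were lost when 1 library was left out, among them those of Egr1 and Krt14 given below. B230217C12Rik (5 and 1 against 7 and 9) lost its call without DMSO replicate 2 (0.58), pre-p38i replicate 1 (1.53) or pre-p38i replicate 2 (1.21). Gm1045 (16 and 15 against 2 and 4) lost it without DMSO replicate 1 (-2.05) or pre-p38i replicate 1 (-1.72). The histone gene Hist1h3b (6 and 12 against 0 and 3) lost it without pre-p38i replicate 1 (-1.25) or DMSO replicate 2 (-1.81). Hist1h3b shares its reads with near-identical H3 copies.

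**Figure D2:**
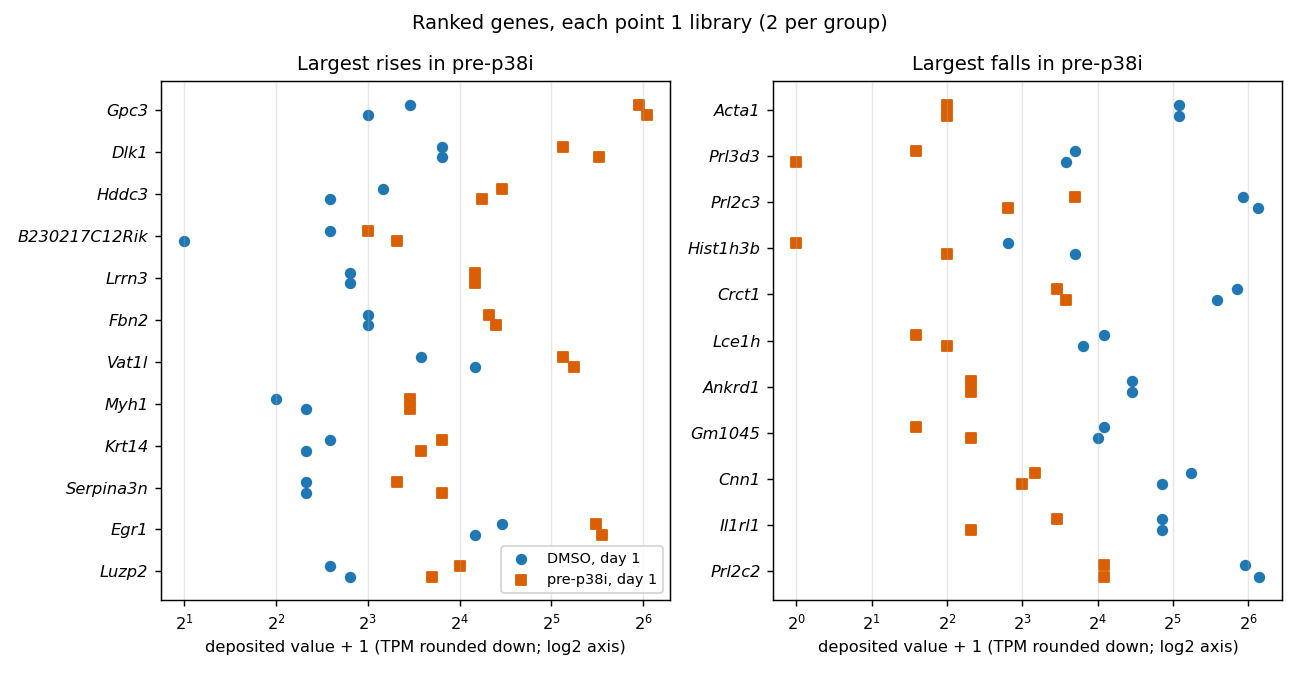
Value plus 1 (TPM rounded down, log2 axis) of the 12 genes with the largest rise and 11 of the 12 with the largest fall on day 1, in each DMSO (circles) and pre-p38i (squares) library. Acta1 falls from 33 and 33 to 3 and 3 and Gpc3 rises from 10 and 7 to 61 and 65. The rule that picked these genes kept only those whose groups did not overlap.

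Fewer genes rose by as much, and Gpc3 led them. Gpc3 (chromosome X, 52272426 to 52613950), a cell-surface glypican that restrains fetal growth and modulates Wnt and Hedgehog ligands, was 10 and 7 in DMSO and 61 and 65 in pre-p38i. This rise of 2.77 ± 0.22 (adjusted p = 9.66e-08, limma) exceeded that of every other ranked gene. In MEFs it was already raised with the inhibitor, at 21 and 19 against 111 and 98 (2.33, adjusted p = 3.22e-07), whereas in p38i cells of day 1 it was 7 and 9. Of 9 glypicans and syndecans tested 3 rose and 4 fell (1 without DMSO replicate 1, 2 without pre-p38i replicate 1), with Sdc2 at 291 and 282 against 378 and 369 (0.38 ± 0.05, adjusted p = 1.78e-05), Gpc1 at 74 and 65 against 46 and 48 (-0.55, lost without DMSO replicate 1 at -0.46, adjusted p = 0.055) and Gpc4 at 180 and 169 against 127 and 138 (-0.40, lost without DMSO replicate 1 at -0.35, adjusted p = 0.0574, and without pre-p38i replicate 1 at -0.34, adjusted p = 0.0622).

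Some imprinted genes of fetal growth also rose. Of 25 tested, 7 rose, 3 fell and 15 were not called (median 0.05), and 6 rose and 3 fell without any 1 library. Fitted on the 4 libraries alone, 2 rose and none fell. H19 (chromosome 7, 142575529 to 142578143), the maternally expressed non-coding RNA, was 184 and 175 in DMSO and 384 and 386 in pre-p38i (1.10 ± 0.07, adjusted p = 5.1e-09, limma). Igf2, the insulin-like growth factor beside it on chromosome 7, was 714 and 703 against 1097 and 1119 (0.64 ± 0.04, adjusted p = 1.56e-08). Dlk1, a Notch-family ligand of fetal mesenchyme, was 13 and 13 against 34 and 45 (1.52 ± 0.18, adjusted p = 1.15e-05), and Nnat, neuronatin, was 60 and 69 against 110 and 112 (0.78 ± 0.08, adjusted p = 2.31e-06). In none of these 4 genes did the groups overlap, as for 21.7% of all genes tested in the higher direction. For Dlk1 the ranking rule required this. The non-coding Rian, from the same imprinted cluster as Dlk1, went the other way, at 121 and 129 against 83 and 84 (-0.58 ± 0.07, adjusted p = 2.63e-05). In MEFs the inhibitor raised H19 from 1540 and 1497 to 3077 and 2960 (0.99), Igf2 from 1888 and 1790 to 2803 and 2750 (0.59) and Dlk1 from 74 and 78 to 182 and 179 (1.24), and by the test of the difference none of these was shown to differ from the rise on day 1 (0.11, adjusted p = 0.601, 0.05, adjusted p = 0.724, and 0.28, adjusted p = 0.582).

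Developmental signals changed in parts. Of 27 Wnt pathway genes 5 rose and 2 fell (median 0.22), and 4 rose without pre-p38i replicate 2 and 3 without each of the others. Lef1, the transcription factor at the end of the canonical pathway, was 5 and 6 against 12 and 14 (1.11 ± 0.17, adjusted p = 0.000214, limma), and Dkk3, a secreted relative of the Wnt antagonists, was 9 and 8 against 17 and 15 (0.84 ± 0.15, adjusted p = 0.00107). The ligands that were called fell, Wnt5a from 48 and 48 to 33 and 37 (-0.45 ± 0.07, adjusted p = 0.000388) and Wnt9a from 5 and 5 to 1 and 1 (-1.58 ± 0.24, adjusted p = 0.000245). Of 23 BMP ligands, antagonists and targets 4 rose and 5 fell (median 0.00), with 3 falls without DMSO replicate 1. The antagonist Grem1 was 367 and 358 against 176 and 176 (-1.04 ± 0.05, adjusted p = 1.05e-10), and Fstl3, which binds activins, was 24 and 23 against 7 and 9 (-1.45 ± 0.18, adjusted p = 2.73e-05). Id3, a dominant-negative helix-loop-helix factor that BMP induces, was 11 and 11 against 20 and 18 (0.74 ± 0.10, adjusted p = 9.33e-05). Id1 was 25 and 30 against 39 and 47 (0.63), but its call was lost without DMSO replicate 1 (0.50, adjusted p = 0.204) or pre-p38i replicate 2 (0.49, adjusted p = 0.209).

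TGF-beta ligands, receptors and targets gave 6 falls and 2 rises among 21 genes (median -0.08), and 3 to 4 falls without 1 library, the fewest without DMSO replicate 1 and without pre-p38i replicate 2. Of the 2 rises, 1 was left without DMSO replicate 1 and none without each of the others. The falls included Pmepa1, a feedback inhibitor of the pathway, at 77 and 73 against 44 and 44 (-0.76 ± 0.09, adjusted p = 1.35e-05, limma), and Inhba, the activin A subunit, at 49 and 50 against 24 and 19 (-1.18 ± 0.22, adjusted p = 0.00136). Both were as low in cells given the inhibitor during induction, with Pmepa1 at 38 and 43 and Inhba at 25 and 29. The receptors Tgfbr1 (11 and 14 against 12 and 14) and Tgfbr2 (85 and 82 against 90 and 97) were not called.

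More growth factor feedback genes were called higher than lower, but among the alternative fits the rises were as few as 0. The Sprouty proteins, the ETV factors and the phosphatase Dusp6 are induced by ERK, and the Sprouty proteins and Dusp6 dampen it. Of 23 such feedback genes 7 rose and 2 fell (median 0.08), but without 1 library the rises numbered 6 (DMSO replicate 1), 2 (DMSO replicate 2), 2 (pre-p38i replicate 1) and 3 (pre-p38i replicate 2). Dusp6 was 31 and 36 against 47 and 46 (0.47 ± 0.08, adjusted p = 0.00107, limma). The immediate early gene Egr1 was 21 and 17 against 44 and 46 (1.21 ± 0.28, adjusted p = 0.00693), a call lost without DMSO replicate 2 (1.06, adjusted p = 0.073) or pre-p38i replicate 2 (1.18, adjusted p = 0.0502). Of 11 AP-1 genes only Fos rose, at 5 and 5 against 10 and 11 (0.94 ± 0.21, adjusted p = 0.00519), and the more abundant Jun was 74 and 68 against 63 and 60 and was not called. Of the genes for p38 itself 1 was called. Mapk14, the alpha isoform, was 54 and 46 against 51 and 55 (0.09 ± 0.07, adjusted p = 0.531), Mapk11 was 5 and 6 against 6 and 7 (0.21, adjusted p = 0.639) and Mapk12 was 4 in all 4 libraries. Mapk13, the delta isoform, was 40 and 35 against 24 and 27 (-0.54 ± 0.17, adjusted p = 0.045), a call lost without any 1 library (adjusted p from 0.0818 to 0.246). Over 17 kinases and effectors of the pathway 1 rose and 1 fell (median 0.10).

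Of the 3 reprogramming factors 1 was called. Pou5f1, the gene for Oct4, was 2996 and 2822 in DMSO and 3768 and 3846 in pre-p38i (0.39 ± 0.05, adjusted p = 1.13e-05, limma), and was 2314 and 2295 in p38i. Since it was listed at 0 in MEFs, and since the retrovirus carries its coding sequence, transgene and endogenous gene cannot be told apart in these values. Sox2 was 1075 and 975 against 1256 and 1327 (0.33 ± 0.18, adjusted p = 0.272) and Klf4 was 777 and 697 against 870 and 847 (0.22 ± 0.08, adjusted p = 0.0943). Neither was called, and their groups did not overlap, as for 21.7% of all genes tested in the higher direction. Klf4 passed after quantile normalization (0.26, adjusted p = 0.0355).

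Among the endogenous pluripotency genes few were called. Nanog was listed at 0 in all 4 libraries, as were 15 of the 31 genes of that list, and of 22 tested 2 rose (median 0.01). Alpl, alkaline phosphatase, was 0 and 1 against 2 and 2, a call lost without DMSO replicate 1 (0.58, adjusted p = 0.208) or either pre-p38i replicate (adjusted p = 0.055 and 0.0585), and Etv5 was 50 and 49 against 61 and 59 (0.27), a call lost without DMSO replicate 2 (0.26, adjusted p = 0.0637) or pre-p38i replicate 1 (0.25, adjusted p = 0.0698). Of 28 epithelial junction and keratin genes none rose and 2 fell (median 0.00). Cdh1, E-cadherin, stood at 10 and 11 against 13 and 13 (0.29 ± 0.10, adjusted p = 0.06) without a call, while Krt8 was 2 and 2 against 3 and 3 (0.42, adjusted p = 0.264) and Cldn3 was 1 and 0 against 1 and 1 (0.50, adjusted p = 0.524). Krt8 was called on the 4 libraries alone (adjusted p = 0.0209). Cldn4 was called lower at 4 and 4 against 0 and 1 (-1.82), a call lost without pre-p38i replicate 1 (-1.32, adjusted p = 0.0532). Keratin 14 (Krt14), a keratin of basal skin cells, was called higher at 5 and 4 against 13 and 11 (1.24), the only change in 4 keratinocyte markers tested, and lost its call without any 1 library (adjusted p from 0.0927 to 0.186), under the replicate block and after quantile normalization.

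Of 31 Trp53 and p53 target genes 7 fell (22.6%, against 6.24% of all genes) and none rose (median -0.12). Among the alternative fits the falls were as few as 1. The falls numbered 3 without DMSO replicate 1, 6 without DMSO replicate 2, 5 without pre-p38i replicate 1 and 4 without pre-p38i replicate 2. The largest of the 7 was that of Pmaip1, the pro-apoptotic protein NOXA, at 38 and 34 against 14 and 13 (-1.35 ± 0.11, adjusted p = 7.38e-08, limma), which was also lower with the inhibitor in MEFs, at 26 and 28 against 7 and 8 (-1.72). Mdm2, the ubiquitin ligase that degrades p53 and is its target, was 254 and 238 against 163 and 164 (-0.59 ± 0.07, adjusted p = 1.96e-05). This call was lost on the 4 libraries alone (adjusted p = 0.0504, limma). Cdkn1a, the cell cycle inhibitor p21, was 971 and 950 against 906 and 939 (-0.06 ± 0.04, adjusted p = 0.467), and Trp53 itself was 174 and 158 against 167 and 183 (0.08 ± 0.07, adjusted p = 0.537). Cdkn2a, which encodes the p16 and p19 inhibitors, fell from 213 and 213 to 161 and 151 (-0.45 ± 0.06, adjusted p = 9.52e-05).

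Cell cycle lists differed in their calls on day 1. Of 22 G1 cyclins, kinases and inhibitors 3 fell (13.6%, against 6.24% of all genes) and none rose (median 0.01), among them Ccnd1, cyclin D1, from 848 and 815 to 651 and 655 (-0.35 ± 0.04, adjusted p = 1.75e-05, limma). Of 43 DNA replication and nucleotide supply genes 6 rose (14.0%, against 5.4% of all genes) and none fell (median 0.13), with 1 to 5 rises without 1 library, 1 of them without DMSO replicate 2 and 3 without pre-p38i replicate 2. Uhrf1, which keeps DNA methylation through replication, was 53 and 54 against 66 and 68 (0.32 ± 0.07, adjusted p = 0.00364). Of 42 mitotic genes 3 rose (7.14%, near the 5.4% of all genes, median -0.01), each lost without at least 2 of the libraries. Of 32 cytokinesis and midbody genes 2 fell (median -0.03), a share of 6.25% that equals the 6.24% of all genes within rounding. Among the 2 was Myh9, the heavy chain of the contractile ring, at 251 and 242 against 190 and 202 (-0.33 ± 0.06, adjusted p = 0.000728, limma). On day 3 the pre-p38i against DMSO comparison called 2729 genes (20.6%), 1820 higher (13.8%) and 909 lower (6.87%), or 1322 higher and 1284 lower after quantile normalization. There 36 of 43 replication genes (median 0.53), 36 of 42 mitotic genes (median 0.59) and 19 of 32 cytokinesis genes (median 0.48) were higher, against a median of 0.07 over all genes. The difference on day 1 was lower than on day 3, by the test of the change itself, for 13 of 43, 24 of 42 and 13 of 32 of these genes. Over all genes tested this held for 4.23%.

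Interferon-stimulated and antigen presentation genes also differed in their calls between the days, in part because many were too low on day 1. On day 1 none of 18 interferon-inducible GTPases was called, 3 of 37 antiviral genes (8.11%) fell and 2 of 19 MHC class I genes (10.5%) fell. Of the 21 GTPases listed 13 were at 0 in all 4 libraries, as were 6 of 38 antiviral and 2 of 19 MHC class I genes. No difference could be measured for these on day 1. Their medians were 0.00, 0.00 and -0.02, and over all genes 6.24% were called lower, a share these small counts lie near. Bst2, tetherin, was 46 and 54 against 34 and 33 (-0.56 ± 0.09, adjusted p = 0.000261, limma), H2-D1 was 140 and 135 against 106 and 113 (-0.33 ± 0.06, adjusted p = 0.000855) and Oas1a was 4 and 4 against 2 and 2 (-0.74 ± 0.12, adjusted p = 0.000621). On day 3, 17 of the 18, 29 of the 37 and all 19 were higher in pre-p38i, with medians of 1.53, 0.75 and 1.17. Over all genes 13.8% were higher there. The change of the difference between the days was itself called downward, that is lower on day 1, for 12, 18 and 18 of these genes. For a gene listed at 0 on day 1 that change rests on the day 3 values alone. Over all genes tested this held for 4.23%.

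Stress response genes under ATF4 fell in part. ATF4 is the factor that cells make when translation is held back by amino acid or endoplasmic reticulum stress. Of 32 such genes 10 fell and 1 rose (median -0.15), and 7 to 10 fell without 1 library and 2 on the 4 libraries alone. Ddit3, the stress factor CHOP, was 60 and 58 against 27 and 24 (-1.18 ± 0.13, adjusted p = 3.8e-06, limma), and Nupr1, a stress-induced chromatin protein, was 258 and 266 against 136 and 119 (-1.04 ± 0.10, adjusted p = 9.01e-07). Slc7a11, the cystine transporter, was 6 and 6 against 3 and 3 (-0.81 ± 0.15, adjusted p = 0.00153). The amino acid transporter gene Slc7a3 fell from 11 and 11 to 7 and 6 (-0.68). Wars, tryptophanyl-tRNA synthetase, rose from 149 and 149 to 204 and 212 (0.48 ± 0.07, adjusted p = 9.34e-05). In MEFs 22 of the 32 were lower with the inhibitor (median -0.41), in a comparison that called 2365 genes (17.9%), 1287 higher (9.73%) and 1078 lower (8.15%). In p38i cells of day 1 Ddit3 was 98 and 97 and Trib3 was 7 and 6, both above the values of 27 and 24 and of 1 and 0 in pre-p38i. The day 1 fall of Trib3 from 2 and 2 lost its call without DMSO replicate 1 (adjusted p = 0.0787), DMSO replicate 2 (adjusted p = 0.0785) or pre-p38i replicate 2 (adjusted p = 0.278).

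Many lysosomal genes fell by small amounts. Of 37 lysosome and V-ATPase genes 22 fell and none rose (median -0.22), and 13 to 16 fell without 1 library, 13 of them without DMSO replicate 1, 15 without pre-p38i replicate 1 and 13 without pre-p38i replicate 2, while the 4 libraries alone gave 5. Ctsl, the protease cathepsin L, was 1013 and 1000 against 642 and 625 (-0.67 ± 0.05, adjusted p = 3.67e-08, limma), and Sqstm1, the autophagy receptor p62, was 739 and 723 against 457 and 480 (-0.64 ± 0.04, adjusted p = 1.56e-08). Gpnmb, a lysosomal glycoprotein, was 66 and 63 against 42 and 39 (-0.66 ± 0.08, adjusted p = 3.07e-05), although it had been higher with the inhibitor in MEFs, at 35 and 36 against 120 and 115 (1.70). In MEFs 11 of the 37 were higher and 3 lower with the inhibitor (median 0.09), and the difference on day 1 was lower than in MEFs for 18 of them and higher for 1. In cells given the inhibitor during induction the list summed to 12010 and 12058, against 10288 and 10097 in DMSO and 8448 and 8437 in pre-p38i.

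Most of the macrophage markers tested fell on day 1. Of 16 markers 13 were tested, 9 fell and none rose, with a median of -1.27, and 8 to 9 fell without any 1 library, but 2 on the 4 libraries alone and 3 on the 6 of day 1. Lyz2 (chromosome 10, 117277331 to 117282321), the lysozyme of myeloid cells, was 171 and 161 in DMSO and 46 and 38 in pre-p38i (-1.96 ± 0.10, adjusted p = 2.97e-10, limma). C1qc, a chain of complement C1q, was 5 and 7 against 2 and 1 (-1.50 ± 0.27, adjusted p = 0.00113), and Adgre1, the F4/80 antigen, was 6 and 5 against 1 and 2 (-1.40 ± 0.23, adjusted p = 0.000488). Csf1r, the receptor that macrophages need, was called lower at 2 and 3 against a listed 0 in both pre-p38i libraries. C1qa was 9 and 10 against 3 and 2 (-1.60), a call lost without pre-p38i replicate 2 (-1.39, adjusted p = 0.0693). The 16 markers summed to 306 and 296 in DMSO, 115 and 111 in pre-p38i, 217 and 231 in p38i, 368 and 351 in MEFs and 251 and 253 in inhibitor-treated MEFs. Cx3cr1 and Aif1 were listed at 0 in all 4 libraries of day 1 and Ptprc at 2 in DMSO replicate 2 and at 0 in the others. Ctss, cathepsin S, is on both this list and the lysosomal list, at 13 and 14 against 5 and 3 (-1.56). The part of these markers in the falls of lysosomal, chemokine and elastase genes was not tested.

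Other cell types left few traces. Of 8 erythroid markers 6 were listed at 0 in all 4 libraries, and the whole list summed to 0 in every MEF library. Embryonic globin Hbb-y, the only erythroid marker tested, was 604 and 632 in DMSO and was higher in pre-p38i at 822 and 807 (0.40 ± 0.08, adjusted p = 0.00286, limma). Tubb3, a tubulin of neurons, was 243 and 222 against 104 and 114 (-1.09 ± 0.11, adjusted p = 3.6e-06), the only call among 5 neural and Schwann cell markers. Rgs5, of pericytes, rose from 18 and 16 to 26 and 29 (0.66) as the only call among 6 smooth muscle and pericyte markers, and lost its call without DMSO replicate 2 (0.58, adjusted p = 0.115) or pre-p38i replicate 2 (0.59, adjusted p = 0.116). None of 3 endothelial markers was called. Of 2 cartilage markers tested the collagen Col2a1 rose, as given above.

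Metabolic lists held few calls that lasted when libraries were left out. Of 29 cholesterol and fatty acid synthesis genes 4 rose and none fell (median 0.15), with 0 rises without DMSO replicate 2 or pre-p38i replicate 2, 2 without DMSO replicate 1 and 3 without pre-p38i replicate 1, so that no gene of this list held its call throughout. Of 35 glycolysis and hypoxia genes 3 fell and 1 rose (median -0.08), each lost without at least 2 of the libraries. None of 13 mitochondrially encoded subunits was called (median 0.14), and single members of that list varied widely between replicates, with mt-Co3 at 1142 and 2266 in DMSO and 1404 and 5211 in pre-p38i. None of 5 metallothionein and zinc exporter genes was called (median -0.12), although Mt1 and Mt2 stood higher in p38i cells and their list summed there to 2809 and 2864 against 930 and 936 in pre-p38i. Of 8 DNA methyltransferase and TET genes Uhrf1 and Tdg rose (median 0.14), Tdg from 40 and 42 to 51 and 54 (0.35, with near-identical pseudogenes that share its reads). Of 26 Hox genes 1 rose and 2 fell (median -0.06), with no rise without any 1 library and 1 fall without DMSO replicate 1 or pre-p38i replicate 2, and with Hoxb9 falling from 19 and 17 to 11 and 12 (-0.60 ± 0.11, adjusted p = 0.00128, limma).

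**Figure D3:**
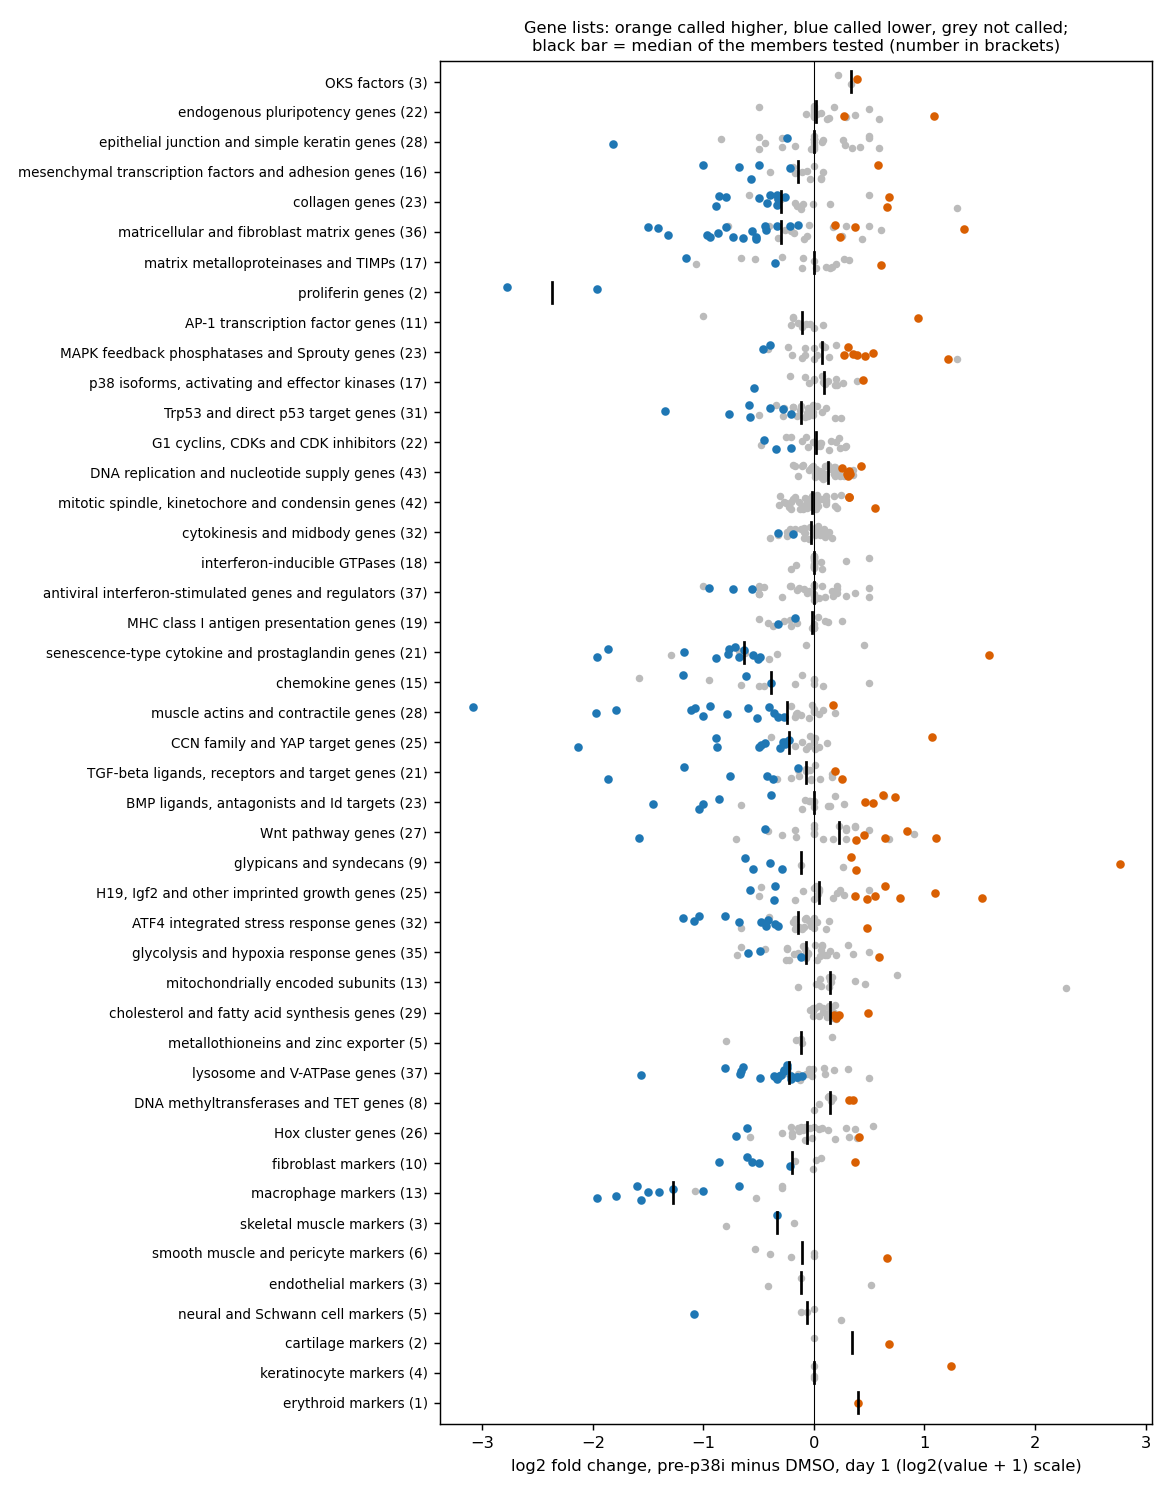
Difference of each gene of each list on day 1 (log2 scale, pre-p38i minus DMSO), with called rises in orange, called falls in blue, uncalled genes in grey and the list median as a black bar. The macrophage list has a median of -1.27 and the senescence-type cytokine list -0.64, while the mitotic list sits at -0.01.

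Set against the other times, a minority of the day 1 calls were shared. The MEF comparison and the day 3 comparison share no library with the day 1 comparison. Of the 714 genes higher on day 1, 232 (32.5%) were also called higher with the inhibitor in MEFs, which is 18.0% of the 1287 there, and 33 were called lower. Of the 825 genes lower on day 1, 312 (37.8%) were also lower in MEFs, 28.9% of the 1078 there, and 43 were higher. With day 3 the shared genes numbered 318 of the higher (44.5% of day 1 and 17.5% of day 3) and 370 of the lower (44.8% and 40.7%), with 19 and 40 called in the opposite direction. Over the 1539 called genes the day 1 difference correlated with the MEF difference at Pearson r = 0.483 and with the day 3 difference at r = 0.675. These values run across genes, which are not independent replicates, and each set of genes was measured in its own 4 libraries.

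The difference of differences was called for 1052 genes between day 1 and MEFs (7.95%), 475 upward (3.59%) and 577 downward (4.36%), and for 786 between day 1 and day 3 (5.94%), the latter 227 upward (1.72%) and 559 downward (4.23%), or 342 and 364 after quantile normalization. H19 and Igf2 were not called on day 3, with H19 at 558 and 519 in DMSO and 529 and 554 in pre-p38i and Igf2 at 486 and 499 against 533 and 528, and for both the day 1 rise was larger by the test (1.09, adjusted p = 1.55e-06, and 0.54, adjusted p = 3.38e-05, limma). Dlk1 was not called there either, at 7 and 7 against 7 and 10, and Gpc3 stood at 5 and 3 against 13 and 14. Acta2 was 66 and 72 against 62 and 70 on day 3, so that its difference was called on day 1 and neither in MEFs nor on day 3, the other times compared here. By contrast Col1a1 fell by like amounts in MEFs, on day 1 and on day 3, by -0.86, -0.86 and -0.91, and no change between them was called. Thbs1 fell by -1.07, -1.42 and -1.40, and its day 1 fall was larger than that in MEFs (-0.35, adjusted p = 0.0216, limma).

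**Figure D4:**
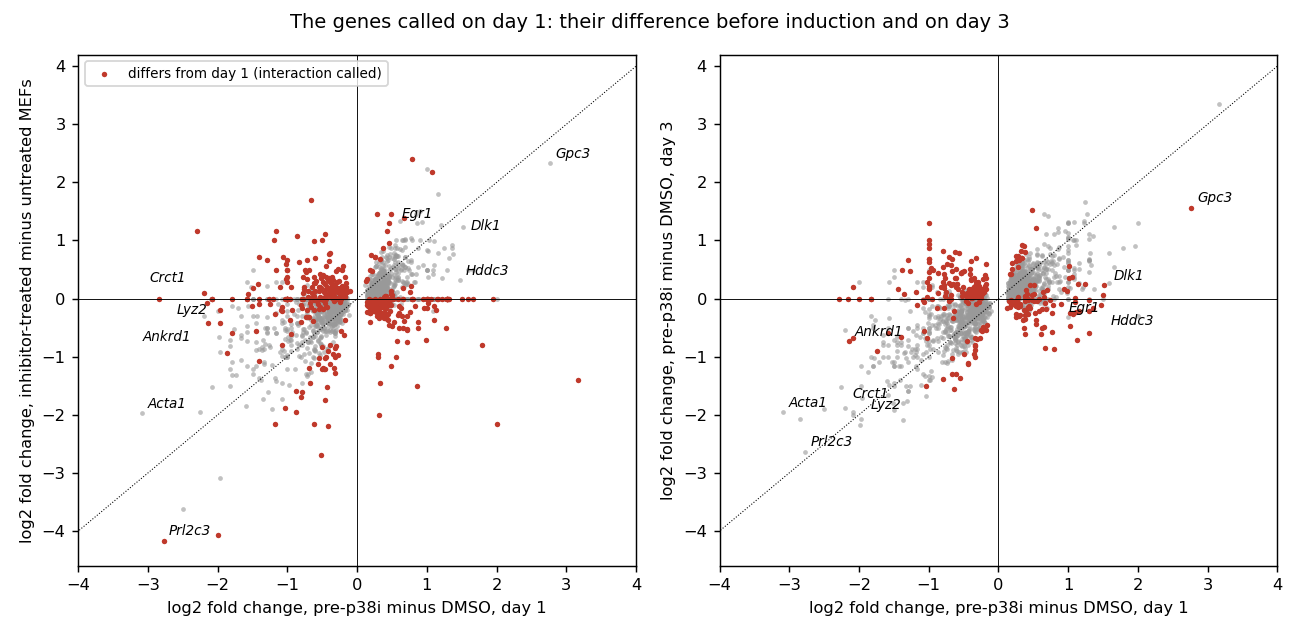
Log2 difference of the 1539 genes called on day 1 (horizontal axis) against their difference with the inhibitor in MEFs (left) and between pre-p38i and DMSO on day 3 (right), with a dotted line of equality and in red the genes whose difference of differences was called. Gpc3 lies near the line for MEFs (2.77 and 2.33) and below it for day 3 (1.56), and Lyz2 lies near 0 for MEFs and near the line for day 3 (-1.96 and -1.71).

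Placed along the course of reprogramming, the genes that differed were not drawn evenly from it. The change from untreated MEFs to DMSO cells of day 3 was called upward for 40.6% and downward for 27.6% of all tested genes. Of the 714 genes higher in pre-p38i on day 1, 469 (65.7%) rise and 143 (20.0%) fall along that course. Of the 825 genes lower in pre-p38i, 393 (47.6%) fall and 299 (36.2%) rise along it. Acta1 (-5.53), Acta2 (-6.43) and Col1a1 (-2.59) were lower in pre-p38i and fall along the course. The 3 growth genes H19 (-1.49), Igf2 (-1.90) and Dlk1 (-3.27) and Gpc3 (-2.10) also fall along it but were higher in pre-p38i, and Lyz2 rises along it (0.77) but was lower.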

How the data were processed

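RNA-seq of 28 libraries in 14 groups of 2 was analysed. The labels name TRIzol extraction, poly(A) selection and a VAHTS V2 library kit, and the study's methods name other kits. By the submitters' processing notes the authors used bcl2fastq, Bowtie2 2.2.5 and RSEM 1.3.0, with mm10 and hg38 as builds. The deposited table holds TPM values rounded down by the authors, treated here as a score because the totals of all libraries are nearly equal (991762 to 992030 here). This unit was inferred from the values and the read depth is unknown. TPM is relative, so a change in a few abundant genes shifts all others. Gene identifiers matched GENCODE M21 for 99.6% of genes, with equal coordinates for 92.5%, and 27 symbols that spreadsheet software had turned into dates were mapped by identifier.

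The 13230 of 50600 genes whose values averaged 1 or more across all libraries were fitted in 1 model of all 14 groups with limma 3.58.1 (lmFit, eBayes with trend) in R 4.3.3 on log2(value + 1), with no replicate block. Sequence copies were searched with BLAST 2.17.0+. The scripts were tested on simulated data. Alternatives were other pseudocounts and filters, fits of fewer libraries, a replicate block, other scalings, a fold threshold, and each library left out.

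Genes named were the 12 largest rises and 12 largest falls of called genes that averaged 5 or more and did not overlap, genes the study features, and up to 6 called members of each list. Members and lists were chosen with earlier results of these data known. Jun, Ctgf, Srf, Col3a1, Tgfbr1, Tgfbr2, mt-Co3, Mt1, Mt2, Tpm4, Ptprc, Cx3cr1 and Aif1 fall outside that rule and were named after their values were seen. Some genes are not reported here.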

Additional observations from a re-analysis of the deposited data

Results flagged for a closer look

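The inhibitor's difference on day 1 differed from its difference in MEFs for 1052 genes when limma tested the change in difference itself. Among the ranked and featured genes these were Crct1 (by -2.30, adjusted p = 0.0045), Lce1h (-2.09, adjusted p = 0.00104), Ankrd1 (-1.71, adjusted p = 0.000403) and Cnn1 (-1.54, adjusted p = 0.0241), whose falls on day 1 exceeded those in MEFs. The fall of Prl2c3 was smaller on day 1 (1.39, adjusted p = 0.00479), and Cdkn1a was lower with the inhibitor in MEFs, at 384 and 370 against 275 and 267, but not on day 1 (0.42, adjusted p = 0.000252). Myh1 (1.298), Prl3d3 (-2.85) and Pou5f1 (0.39) also met the test, but they were listed at 0 in all MEF libraries, so that no difference could be measured there.

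Between day 1 and day 3 the difference changed for 786 genes. The rises on day 1 were larger for Hddc3 (by 1.59, adjusted p = 0.0259), Lrrn3 (1.52, adjusted p = 0.00219), Luzp2 (1.36, adjusted p = 0.000588), Dlk1 (1.29, adjusted p = 0.00397), Gpc3 (1.20, adjusted p = 0.0271), Serpina3n (1.00, adjusted p = 0.0358) and Pou5f1 (0.23, adjusted p = 0.036). The fall on day 1 was larger for Ankrd1 (-1.40, adjusted p = 0.00371). Lce1h also met the test (-2.15), but it was listed at 0 in the day 3 libraries, so that no difference could be measured there. Cdh1 differed more on day 3, at 33 and 30 in DMSO and 66 and 65 in pre-p38i (-0.75, adjusted p = 0.00217). Groups of 2 libraries are too small for a test of outlying samples.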

How the results depend on the processing

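The count of 1539 called genes (714 higher, 825 lower) was 359 (142 and 217) on the 4 libraries alone, 660 (262 and 398) on the 6 libraries of day 1, and 856 to 950 without 1 library (318 to 473 higher, 421 to 556 lower). Requiring a log2 difference of at least 1 left 256 (86 and 170). Pseudocounts of 0.1 and 5, no filter, a minimum mean of 5, quantile normalization and rescaling without transgenes and mitochondrial genes gave 1419 to 1623.

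Without 1 library, the difference of differences against MEFs was called for 695 to 773 genes (313 to 363 higher, 332 to 460 lower) and against day 3 for 488 to 571 (125 to 163 higher, 326 to 436 lower). Quantile normalization moved the latter to 342 higher and 364 lower. At a log2 difference of at least 1 the counts were 261 (132 and 129) against MEFs, 192 (38 and 154) against day 3, 358 (134 and 224) for the inhibitor in MEFs, 327 (198 and 129) for day 3 and 604 (454 and 150) for pre-p38i against p38i. Without 1 library Zeb1 ranged from -0.11 to 0.12, with -0.03 without pre-p38i replicate 2, and Mapk14 from -0.027 to 0.20, neither of them called. Of the 161 called genes named, 31 held in every alternative, 87 without each library, 126 were lost on the 4 libraries alone and 78 on the 6 of day 1. The cause was not tested beyond the smaller number of libraries that these fits hold by construction.

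With the replicate number as a block, 1307 genes were called (585 higher, 722 lower), 1248 of them shared with the fit without it, and 19 of the 161 named calls were lost. The numbers did not pair the libraries, since deviations of same-numbered DMSO and pre-p38i libraries of day 1 correlated at -0.0159.

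Unknown depth, rounding to whole TPM and 2 libraries a group limit the values under about 10, where a step of 1 is a large fold change.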
